A study of Mus musculus with 3 samples.

Results

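The genes described here encode 38 enzymes, carriers and activators of ceramide and sphingolipid metabolism that act in the lipid barrier of skin. They were chosen by name from the steps of the pathway, and all 38 were found among the 21881 gene rows of the tables, 33 under their current symbol and the 5 ceramide synthases under the older Lass symbols. RNA sequencing was done on whole skin of mice of the inbred strain FVB, at 3 ages: embryonic day 18.5 (E18.5, the embryos), postnatal day 3 (P3, the pups) and 10 weeks (10wk, the adults). No treatment or altered gene is named in the labels, and the pieces of whole skin also held dermis, fat, muscle, vessels and nerves. The series design gives 2 biological replicates per age, but each table used here holds 1 averaged FPKM value (fragments relative to transcript length and to all mapped fragments) per gene and age, so that no difference below has a replicate check, a standard deviation or a p-value. Sequencing depth is unknown.

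Ceramide is built from a sphingoid base, made from serine and palmitoyl-CoA, and a fatty acid. In the epidermis, the fatty acids are lengthened to very long and ultra-long chains, the longest ceramides are esterified with linoleic acid at the far end, and the ceramides travel as glucosylceramide and sphingomyelin in lamellar granules to the stratum corneum. There the head groups are removed, the linoleate is oxidised by lipoxygenases, and part of the ceramide is bound to the cornified envelope. Ceramidases split ceramide into a fatty acid and sphingosine, which can be phosphorylated and cleaved.

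The 38 genes together were lowest before birth. All 38 reached 1 FPKM at 1 or more ages, and none was listed at 0 or marked as a failed estimate. In age order, their median level was 12.8, 35.9 and 26.7 FPKM, and their summed level was 1227, 2661 and 2192 FPKM. That is 0.207%, 0.440% and 0.335% of the summed FPKM of all genes with an estimate at that age. The P3 sum lacks Krt1 and Krt10, which stood at 3688 and 4499 FPKM at E18.5, so the P3 share is too high to that extent. The highest of the 3 values was in the pups for 22 genes, in the adults for 16 and in the embryos for 0, whereas 33.8% of all expressed genes had their highest value at P3, 47.7% at 10wk and 18.5% at E18.5. The highest members were Gltp at P3 (514 FPKM) and Psap at 10wk (553 FPKM), and the lowest were Fa2h and Sgms2 at E18.5 (1.02 and 1.23 FPKM).

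**Figure D1:**
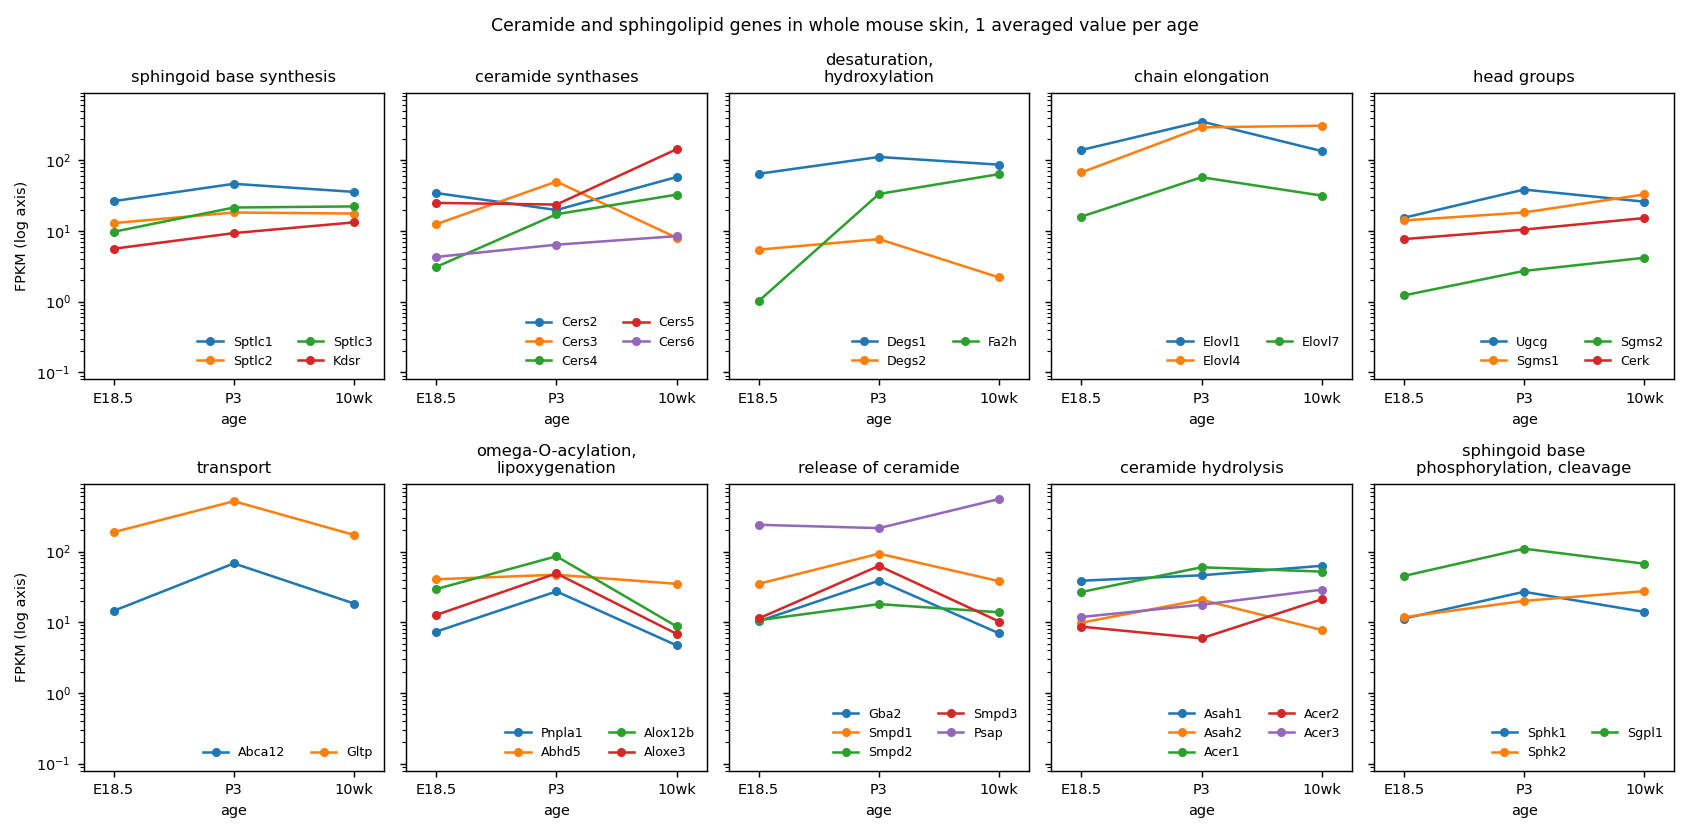
Level of each of the 38 genes at E18.5, P3 and 10wk in FPKM on a log axis, in 10 panels by step of the pathway; each point is 1 averaged value. Cers3, Elovl1, Abca12, Gltp, Pnpla1, Alox12b, Aloxe3, Gba2, Smpd1, Smpd3 and Asah2 form a peak at P3. Cers5, Psap and Acer2 are at least 2-fold higher at 10wk than at both other ages. Cers4 and Fa2h also have their highest value at 10wk, but by under 2-fold over P3.

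Differences between ages are given as log2 of (FPKM + 1), later age minus earlier. A gene is called higher or lower where the difference is at least 1, which is 2-fold on this scale. From E18.5 to P3, 20 of the 38 genes were higher and 0 lower, beside 9.56% and 9.42% of all 14653 genes compared; the median difference was 1.04 against 0.03 over all genes. From P3 to 10wk, 12 were lower and 4 higher, beside 9.98% and 19.8% of all genes, with a median of -0.36 against 0.14. From E18.5 to 10wk, 12 were higher and 2 lower, beside 16.1% and 6.92% of all genes, with a median of 0.63 against 0.22. The 3 comparisons share their samples, and the P3 value of a gene enters the first and the second with opposite sign.

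Keratinocyte markers moved with these values. Of 12 markers of epithelium of all layers, among them the adhesion genes Cdh1 and Epcam, 12 were higher at P3 (lowest 1.24, median 1.71, highest 2.13), and 10 were lower at 10wk than at P3 (lowest -1.80, median -1.52, highest -0.56). Their summed level was 1337, 4058 and 1582 FPKM at the 3 ages, and none was listed at 0. The 8 markers of basal keratinocytes, such as Krt5 and Krt14, summed to 2201, 5444 and 1723 FPKM, with 4 of 8 higher at P3 and 2 of 8 lower at 10wk than at P3. The granular and cornified markers with a value at all ages, such as Lor and Ivl, were 13 genes that summed to 2474, 10662 and 1181 FPKM, with 12 of 12 expressed ones higher at P3 and 12 of 12 lower at 10wk; Krt1 and Krt10 were left out because their P3 estimates failed. In bulk tissue, a larger number of keratinocytes and more RNA of these genes per keratinocyte cannot be told apart.

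The 38 genes were therefore also set against the 12 epithelial markers. From E18.5 to P3, 12 of the 38 differences lay within the range of the markers. Above all 12 markers lay 4 genes, Cers4, Fa2h, Abca12 and Smpd3, and below all of them lay 22. Of the 4, Cers4 (2.15) and Abca12 (2.16) were barely past the highest marker (2.13). With the epithelial median subtracted, only Fa2h was 2-fold higher at P3 (1.28% of all genes) and 14 were 2-fold lower (84.7% of all genes), and the median of the members turned from 1.04 to -0.68. From P3 to 10wk, 23 genes lay above all epithelial markers and 7 below all of them, namely Cers3, Abca12, Pnpla1, Alox12b, Aloxe3, Gba2 and Smpd3. Here Abca12 (-1.83) was barely below the lowest marker (-1.80). With the median subtracted there, 22 were 2-fold higher (80.5% of all genes) and Alox12b and Aloxe3 were 2-fold lower (2.12% of all genes). The 12 granular and cornified markers ranged from -4.97 to -1.19 from P3 to 10wk (median -2.69), a range that holds all 7 genes. Relative to the median of those markers, 0 of the 38 genes were 2-fold lower, and the share of all genes was not computed for this. From E18.5 to 10wk, where the epithelial median was 0.28, 4 genes were 2-fold higher relative to it (11.5% of all genes), Cers4, Cers5, Fa2h and Elovl4, and 3 lower (9.53% of all genes), Degs2, Alox12b and Aloxe3.

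**Figure D2:**
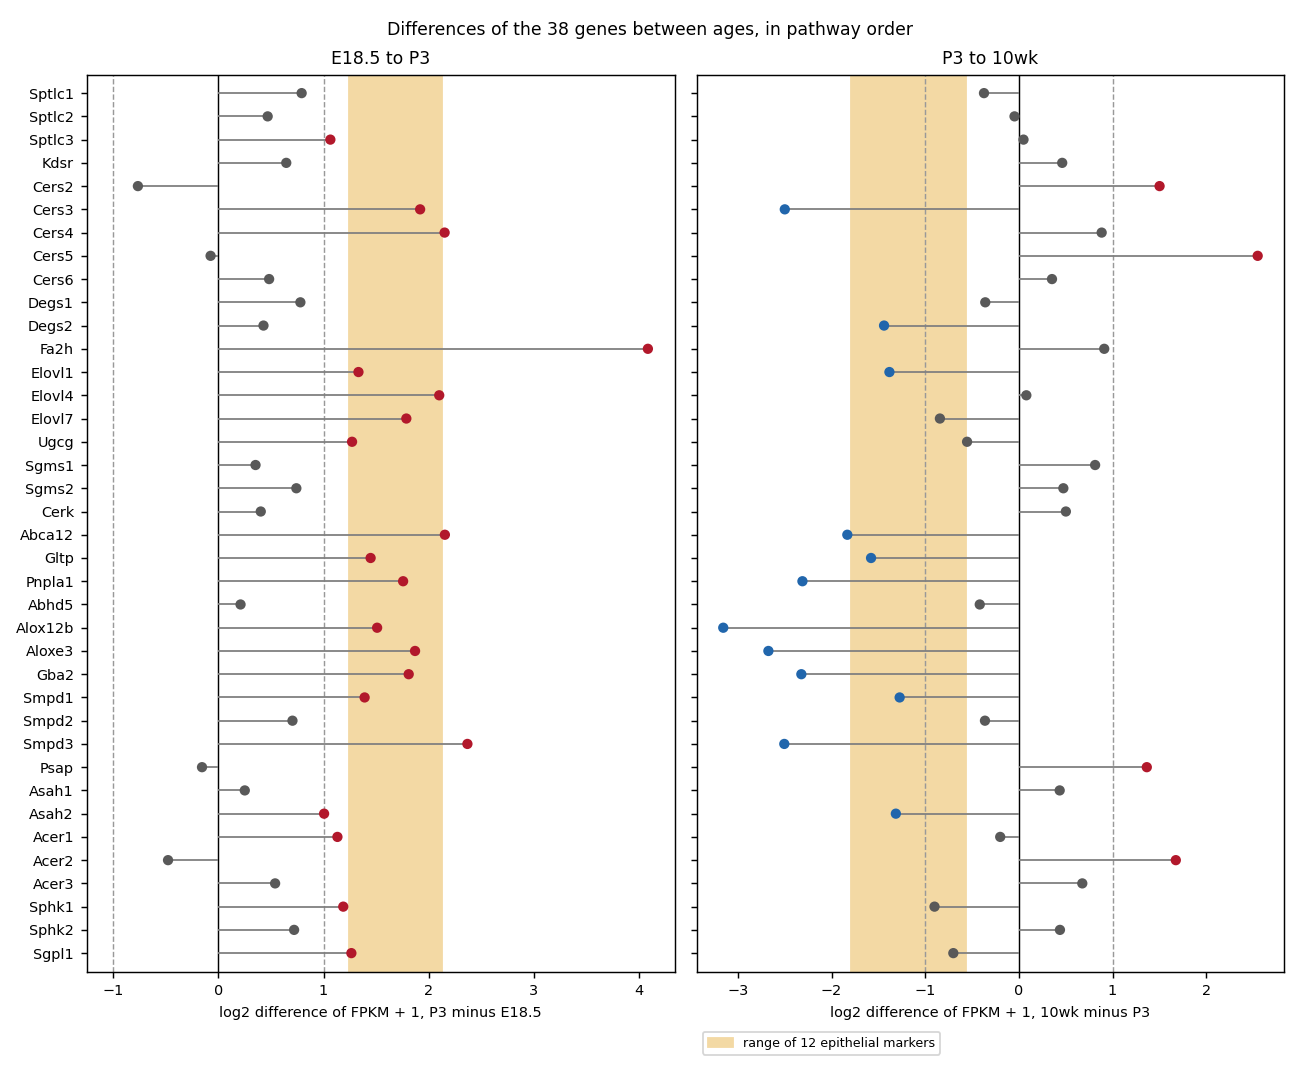
Log2 difference of FPKM + 1 of each of the 38 genes, P3 minus E18.5 on the left and 10wk minus P3 on the right; dashed lines mark the 2-fold threshold, red points are called higher, blue points lower, and the shaded band is the range of the 12 epithelial markers. At P3 12 genes lie inside the band, and from P3 to 10wk the lipoxygenases Alox12b and Aloxe3 lie farthest below it.

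Other cell types of skin also differed between the ages. The 7 skeletal muscle markers, such as Acta1 and Ckm, summed to 3702, 310 and 16666 FPKM, with 6 of 7 lower at P3 and 7 of 7 higher again at 10wk. The 7 white adipocyte markers, Adipoq and Plin1 first, summed to 4221, 1521 and 6066 FPKM, with 5 of 7 lower at P3 and 7 of 7 higher at 10wk than at P3. The 6 macrophage markers summed to 154, 64.5 and 1447 FPKM, with 3 of 6 lower at P3 and 6 of 6 higher at 10wk. The 6 endothelial markers summed to 188, 60.8 and 151 FPKM, all 6 lower at P3 and 4 of 6 higher at 10wk than at P3. The E18.5 library had a male pattern of sex-linked genes (Xist at 0.0433 FPKM, Ddx3y at 24.1) and the later ones a female pattern (Xist at 64.6 and 73.0 FPKM), so that sex and age cannot be told apart in comparisons with E18.5. No marker in these lists was listed at 0, and the part of these cell types in the values below was not tested.

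**Figure D3:**
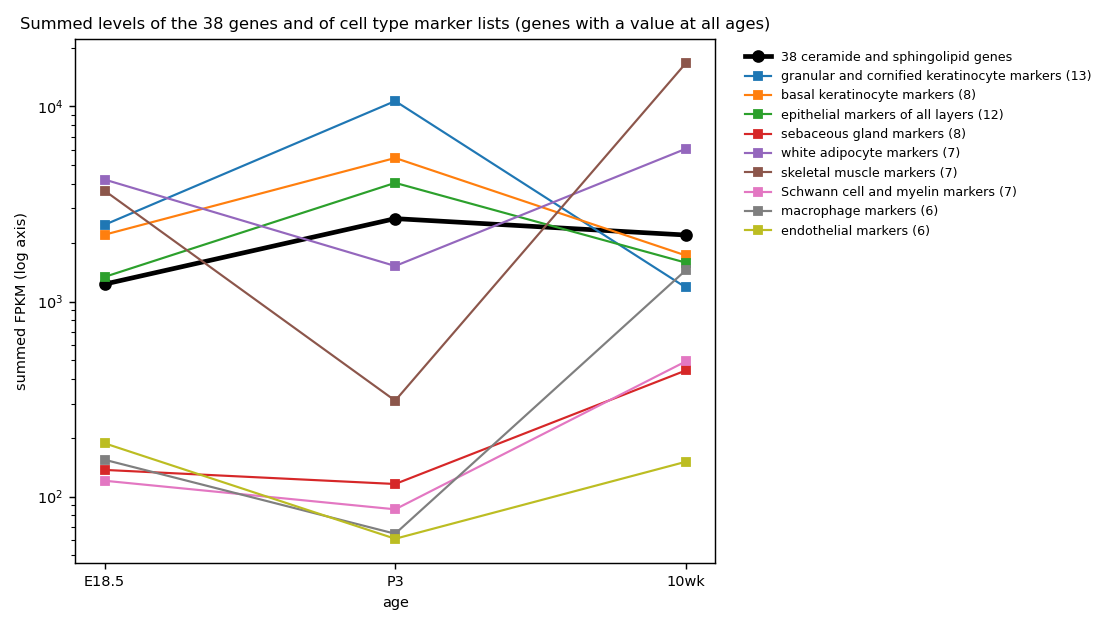
Summed FPKM on a log axis of the 38 genes (black) and of 9 cell type marker lists at the 3 ages, with the number of genes with a value at all ages in brackets. The 3 keratinocyte lists peak at P3, where the muscle, adipocyte, macrophage and endothelial lists have their lowest sums.

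Of the 4 genes of sphingoid base synthesis, 1 was higher at P3, 2 were higher at 10wk than at E18.5, and 0 were lower in any comparison. Serine palmitoyltransferase, the enzyme that condenses serine with palmitoyl-CoA, consists of Sptlc1 with either Sptlc2 or Sptlc3. Sptlc1 (mm9 chromosome 13, 53428119 to 53472730) stood at 26.4, 46.4 and 35.6 FPKM at E18.5, P3 and 10wk in this order, which holds for every triple of values below, and Sptlc2 (chromosome 12, 88648839 to 88729180) at 12.9, 18.2 and 17.6 FPKM; neither passed 2-fold in any comparison. Sptlc3 (chromosome 2, 139319656 to 139463410) was at 9.72, 21.4 and 22.2 FPKM, higher by 1.07 at P3 and by 1.11 at 10wk than before birth. The P3 call of Sptlc3 is lost with a pseudocount of 5 and with upper-quartile scaling, and its 10wk call with a pseudocount of 5 and with 2 other scalings. Of the FPKM of Sptlc2 and Sptlc3 together, Sptlc3 held 43.0% before birth, 54.0% at P3 and 55.8% in the adult. Kdsr, which reduces the product to dihydrosphingosine, was at 5.60, 9.32 and 13.2 FPKM and passed 2-fold only between E18.5 and 10wk (1.11).

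The 5 listed ceramide synthases, which attach the fatty acid, followed different courses. Cers3, which the epidermis uses for ultra-long-chain ceramides (chromosome 7, 73888390 to 73968578), was at 12.5, 49.9 and 8.004 FPKM, with log2 differences of 1.92 from E18.5 to P3 and -2.499 from P3 to 10wk. Cers4 (chromosome 8, 4493405 to 4526079) was at 3.10, 17.2 and 32.6 FPKM, higher than at E18.5 by 2.15 at P3 and by 3.04 at 10wk. Cers5, which prefers the shorter palmitoyl chain (chromosome 15, 99566023 to 99602946), was at 24.9, 23.6 and 143 FPKM, a difference of 2.55 from P3.

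Cers2, the synthase of very-long-chain ceramides in many tissues, had its lowest value at P3, with 34.3, 19.8 and 57.8 FPKM; the first difference of -0.77 is under 2-fold and the second of 1.503 above it. Its listed span (chromosome 3, 95119174 to 95161124) is shared with Setdb1, and its level is uncertain to that extent. Cers6 was low throughout, at 4.29, 6.39 and 8.45 FPKM. Among the listed synthases, the gene with the largest share of the FPKM was thus a different one at each age. Cers2 held 43.4% of the summed 79.1 FPKM before birth, Cers3 42.7% of 117 FPKM at P3 and Cers5 57.2% of 250 FPKM at 10wk, when Cers3 held 3.20%. From P3 to 10wk, Cers2 and Cers5 were higher, as were 7 of 7 muscle, 7 of 7 adipocyte and 6 of 6 macrophage markers. So were 5 of 8 sebaceous gland markers (1 lower), 5 of 7 Schwann cell and myelin markers and 4 of 6 endothelial markers. From E18.5 to 10wk, Cers2 differed by 0.74, under 2-fold, and Cers5 by 2.47. The part of these cell types in the Cers2 and Cers5 values was not tested.

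**Figure D4:**
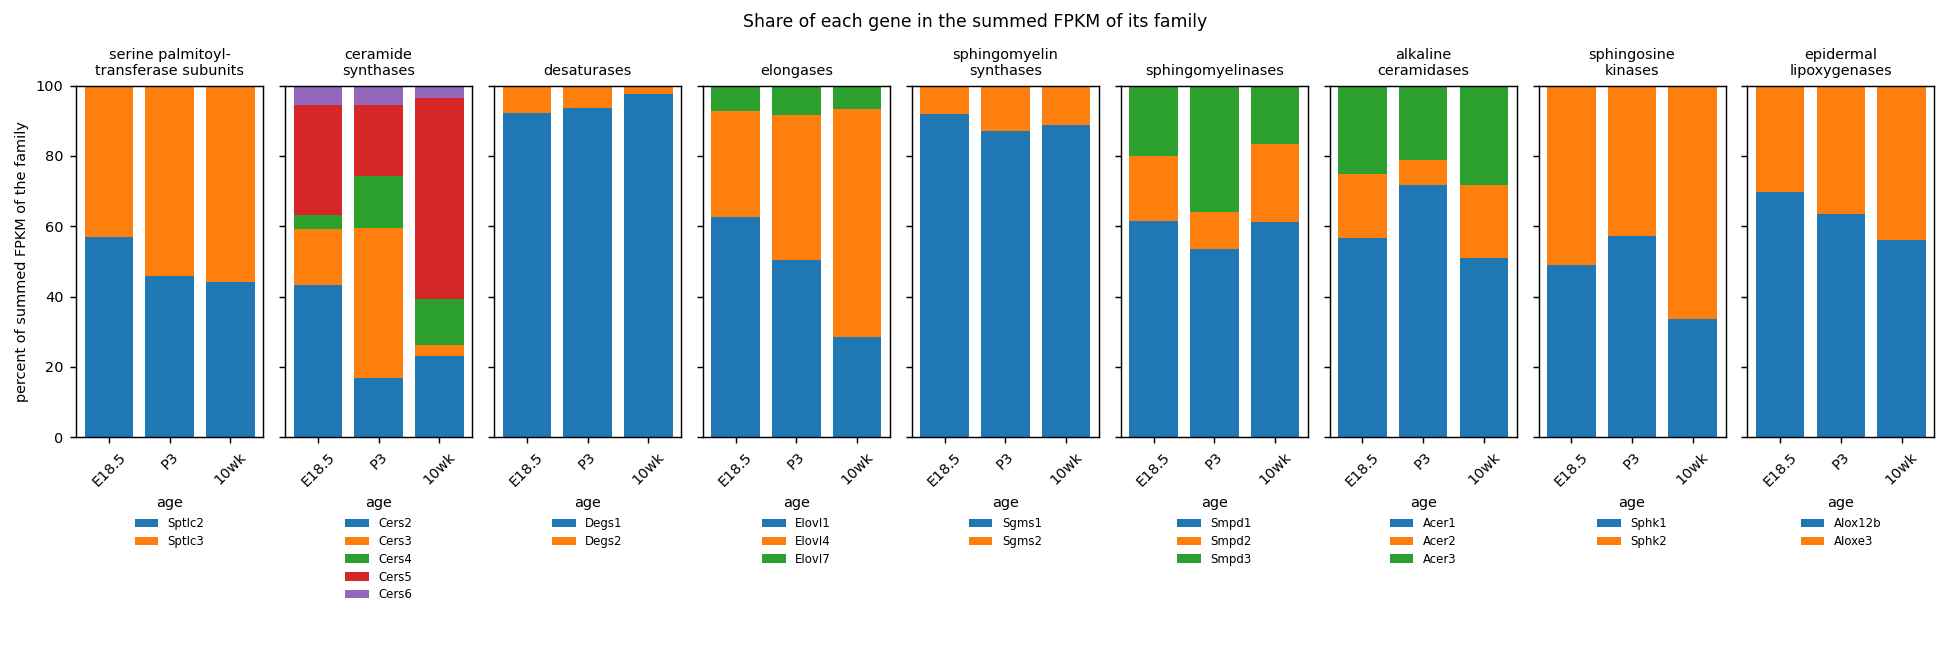
Share of each gene in the summed FPKM of the listed genes of its enzyme family, in percent, at E18.5, P3 and 10wk for 9 families. Each bar is 1 age and adds up the listed genes only. Cers3 grows from 15.7% to 42.7% of the listed ceramide synthases at P3 and stands at 3.20% at 10wk. Elovl4 grows from 30.2% to 41.5% and 64.9% of the 3 listed elongases.

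Of the enzymes that modify the chains, Degs1, the desaturase that turns dihydroceramide into ceramide, was high throughout at 64.3, 111 and 86.5 FPKM, with no 2-fold difference. Degs2, which also hydroxylates to form phytoceramide, was far lower at 5.44, 7.67 and 2.20 FPKM, and lower in the adult than at either earlier age (-1.44 from P3, -1.01 from E18.5). Both calls of Degs2 are lost with a pseudocount of 5. Degs2 shares its listed span (chromosome 12, 109792930 to 109940516) with Evl, which stood at 19.6, 19.8 and 9.01 FPKM, so that reads of either gene may count for the other. Fa2h, the fatty acid 2-hydroxylase known from myelin, sebaceous glands and epidermis (chromosome 8, 113869038 to 113917721), had the largest difference of all 38 genes. It was at 1.02, 33.4 and 63.7 FPKM, a log2 difference of 4.09 to P3, and its FPKM was 32.7 times and 62.4 times that of E18.5 at the later ages. With the low E18.5 level the difference depends on the pseudocount: with one of 5, that of Fa2h to P3 was 2.67. Of the 8 sebaceous gland markers, which summed to 137, 116 and 443 FPKM, 6 were higher and 1 lower at P3, and 5 higher and 1 lower at 10wk than at P3. The one lower at P3 was Cidea, which fat cells also express, at 121 and 25.6 FPKM at the first ages. Of the 7 Schwann cell and myelin markers, which summed to 121, 86.0 and 493 FPKM, 1 was higher and 1 lower at P3 and 5 were higher at 10wk than at P3.

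All 3 listed elongases of very long fatty acids were higher after birth, at P3. Elovl1, which lengthens saturated chains of many tissues, was at 139, 353 and 135 FPKM, with differences of 1.33 and -1.38. Its span (chromosome 4, 118100698 to 118109948) is shared with the cell cycle gene Cdc20, which stood at 29.9, 42.8 and 4.89 FPKM. Elovl4 (chromosome 9, 83672299 to 83699912), whose products are the ultra-long chains of acylceramide, was at 67.1, 291 and 308 FPKM and so kept its P3 level in the adult, a difference of 0.08. Elovl7 was at 15.9, 57.5 and 31.6 FPKM, higher at P3 by 1.79, with a difference of -0.84 from P3 to 10wk. Elovl4 held 30.2% of the FPKM of the 3 genes before birth and 64.9% in the adult, and Elovl1 62.7% and 28.4%. At P3, Elovl1 and Elovl4 stood among the highest 1.61% and 1.94% of expressed genes.

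Head group genes showed 1 called difference at P3. Ugcg, which adds glucose to ceramide for packing into lamellar granules, was at 15.3, 38.5 and 25.9 FPKM and was higher at P3 by 1.27. The sphingomyelin synthases differed in level but not in direction. Sgms1 of the Golgi was at 14.1, 18.2 and 32.8 FPKM and Sgms2, which also acts at the plasma membrane, at 1.23, 2.72 and 4.17 FPKM, and both passed 2-fold only between E18.5 and 10wk (1.17 and 1.22). Cerk, which phosphorylates ceramide, was at 7.66, 10.5 and 15.2 FPKM with no 2-fold difference.

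Both transport genes were highest at P3. Abca12, the transporter that loads lipid into lamellar granules (chromosome 1, 71289664 to 71461484), was at 14.5, 68.0 and 18.4 FPKM, with differences of 2.16 and -1.83. Gltp, which carries glycolipids between membranes (chromosome 5, 115119511 to 115140944), was at 188, 514 and 172 FPKM, with differences of 1.45 and -1.58, and its P3 level lay among the highest 1.23% of expressed genes. Their adult levels differed from those at E18.5 by 0.32 and -0.13 on the log2 scale.

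The 4 genes of acylceramide formation and lipoxygenation had the lowest median difference from P3 to 10wk of any step, -2.49. Of them, 3 of 4 were lower, beside 9.98% of all genes. The granular and cornified markers had a median of -2.69 in this comparison, with 12 of 12 lower. Pnpla1, the enzyme that transfers linoleate onto the ultra-long ceramide (chromosome 17, 28995356 to 29027253), was at 7.37, 27.3 and 4.70 FPKM, with differences of 1.76 and -2.31. Abhd5, which activates lipases of this family and is used in fat cells too, was at 40.5, 47.0 and 34.9 FPKM and passed 2-fold in no comparison. Alox12b, the first lipoxygenase of the pathway (chromosome 11, 68970574 to 68983293), was at 29.4, 85.7 and 8.72 FPKM. Aloxe3, which acts on its product and lies 7956 bases away on the same chromosome (68939879 to 68962617), was at 12.7, 49.0 and 6.84 FPKM. Alox12b differed by 1.51 from E18.5 to P3, by -3.16 from P3 to 10wk and by -1.65 from E18.5 to 10wk, and was thus highest at P3 and lowest in the adult. Aloxe3 differed by 1.87, -2.67 and -0.80, the last under 2-fold but called lower when the ages are rescaled on the median of ratios (-1.03) or the upper quartile (-1.07). The summed FPKM of both genes was 42.1, 135 and 15.6, with Alox12b holding 69.9%, 63.6% and 56.0% of it.

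Among the genes that release ceramide from its precursors, 3 were highest at P3. Smpd1, the acid sphingomyelinase, was at 34.9, 93.3 and 38.03 FPKM, with differences of 1.39 and -1.27. Smpd3, a neutral sphingomyelinase of the Golgi and plasma membrane (chromosome 8, 108776448 to 108861888), was at 11.3, 62.7 and 10.2 FPKM, with differences of 2.37 and -2.504. Smpd2, another neutral enzyme, was at 10.7, 18.0 and 13.8 FPKM with no 2-fold difference. The share of Smpd3 in the FPKM of these 3 genes was 19.9%, 36.0% and 16.5% in age order.

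Gba2, the glucosylceramidase outside the lysosome, was at 10.3, 38.8 and 6.95 FPKM, with differences of 1.81 and -2.32. It shares its listed span (chromosome 4, 43575506 to 43600359) with Creb3, Msmp and Rgp1, whose values were 31.8, 28.9 and 42.0 FPKM, 11.5, 18.0 and 13.5 FPKM, and 9.48, 13.9 and 9.92 FPKM. Psap, the precursor of the saposins that help lysosomal enzymes reach glycolipids (chromosome 10, 59740376 to 59765348), went the other way. It was at 239, 214 and 553 FPKM, higher in the adult by 1.37 than at P3 and by 1.21 than at E18.5. The macrophage markers (6 of 6) and the muscle markers (7 of 7) were higher in the adult as well, against either earlier age. The adipocyte markers were higher in 7 of 7 cases against P3 and in 4 of 7 against E18.5. The part of these cell types in the Psap values was not tested.

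The ceramidases, which split ceramide, differed in course. Asah1, the acid ceramidase of lysosomes, was at 38.6, 46.2 and 62.8 FPKM with no 2-fold difference. Asah2, the neutral enzyme, was at 9.85, 20.8 and 7.77 FPKM; its difference at P3 of 1.01 is just past 2-fold and is lost with the other scalings and a pseudocount of 5, and that of -1.31 from P3 to 10wk is called. Acer1, the alkaline ceramidase of the epidermis (chromosome 17, 57092913 to 57121549), was at 26.8, 59.9 and 52.0 FPKM, higher at P3 by 1.13, a call that is lost with upper-quartile scaling. Acer2, a Golgi ceramidase, was instead lowest at P3 and highest in the adult, at 8.66, 5.93 and 21.1 FPKM (-0.48 and 1.68). Acer3 was at 11.9, 17.7 and 28.9 FPKM and passed 2-fold only between E18.5 and 10wk (1.22). Acer1 held 56.6%, 71.7% and 51.0% of the FPKM of the alkaline enzymes.

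At the end of the pathway, Sgpl1, the lyase that cleaves sphingosine 1-phosphate, was the highest of the 3 genes at each age, at 45.1, 110 and 67.2 FPKM, and was higher at P3 by 1.27. The kinases that make sphingosine 1-phosphate stood close to each other at E18.5, Sphk1 at 11.3 FPKM and Sphk2 at 11.8. Sphk1 was then at 27.0 FPKM at P3 and 14.0 at 10wk, higher at P3 by 1.19, a call lost with a pseudocount of 5 and with upper-quartile scaling. Sphk2 was at 20.0 and 27.5 FPKM and passed 2-fold only between E18.5 and 10wk (1.16). Its span (chromosome 7, 52960617 to 52973372) is shared with the clock gene Dbp, at 2.75, 2.56 and 38.9 FPKM, and reads of either may count for the other. Sphk2 held 51.1%, 42.6% and 66.3% of the FPKM of both kinases.

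By their courses, 11 genes were highest at P3, at least 2-fold above both other ages: Cers3, Elovl1, Abca12, Gltp, Pnpla1, Alox12b, Aloxe3, Gba2, Smpd1, Smpd3 and Asah2. This is a share to be read beside 5.35% of all genes with that course. All 12 expressed granular and cornified markers and 10 of the 12 epithelial markers also passed 2-fold in both of these comparisons, and with the epithelial median subtracted 0 of the 38 genes had this course. The 4 genes that were at least 2-fold lower at E18.5 than at both later ages (2.45% of all genes) were Sptlc3, Cers4, Fa2h and Elovl4. The 3 genes highest in the adult (12.3% of all genes) were Cers5, Psap and Acer2. No gene was 2-fold lower at P3 than at both other ages (5.54% of all genes). A further 8 genes passed 2-fold in no comparison, namely Sptlc1, Sptlc2, Cers6, Degs1, Cerk, Abhd5, Smpd2 and Asah1. Of the 12 genes called higher in the adult than at E18.5, 7 lose the call when the ages are rescaled on the median of ratios or on the upper quartile: Sptlc3, Kdsr, Sgms1, Psap, Acer2, Acer3 and Sphk2. With a pseudocount of 5, 6 of the 12 lose it, namely Sptlc3, Kdsr, Sgms1, Sgms2, Acer2 and Sphk2.

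The promoters of the genes highest at P3 were searched for 2 motifs, because these genes shared a course. The windows, from 250 bases before to 50 bases after each annotated start, come from RefSeq on GRCm38.p6, another build than the mm9 of the tables, and 34 of the 38 genes had 1 or more windows (51 in all). The motifs were TGANTCA, bound by AP-1 factors, and CCAAT, the box bound by NF-Y, both searched on both strands, and no window shown held both. TGANTCA was in 8 of the 51 windows (15.7%) and in 7.81% of all 32851 windows, and CCAAT in 16 (31.4%) and in 37.4% of all windows. Of the 11 genes highest at P3, 9 had a window and 5 of these held a motif, CCAAT in 4 of them and TGANTCA in 1. Those 5 windows are shown 5′ to 3′ on the strand of the gene, with the motif in capitals, where ATTGG is CCAAT on the other strand.
Elovl1, chr4:118427843-118428142, plus strand: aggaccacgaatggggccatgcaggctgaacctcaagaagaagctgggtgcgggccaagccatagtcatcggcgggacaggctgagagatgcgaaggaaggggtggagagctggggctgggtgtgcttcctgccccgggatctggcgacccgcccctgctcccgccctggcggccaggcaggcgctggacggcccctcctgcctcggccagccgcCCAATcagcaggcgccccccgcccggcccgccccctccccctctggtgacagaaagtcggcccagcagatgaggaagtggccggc
Gltp, chr5:114690886-114691185, minus strand: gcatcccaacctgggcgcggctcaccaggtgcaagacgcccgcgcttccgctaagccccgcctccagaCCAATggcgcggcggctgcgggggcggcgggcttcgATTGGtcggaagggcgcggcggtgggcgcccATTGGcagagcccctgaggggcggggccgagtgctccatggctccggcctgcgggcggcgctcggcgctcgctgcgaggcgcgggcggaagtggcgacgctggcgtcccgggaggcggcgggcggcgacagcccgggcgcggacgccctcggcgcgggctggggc
Pnpla1, chr17:28858161-28858460, plus strand: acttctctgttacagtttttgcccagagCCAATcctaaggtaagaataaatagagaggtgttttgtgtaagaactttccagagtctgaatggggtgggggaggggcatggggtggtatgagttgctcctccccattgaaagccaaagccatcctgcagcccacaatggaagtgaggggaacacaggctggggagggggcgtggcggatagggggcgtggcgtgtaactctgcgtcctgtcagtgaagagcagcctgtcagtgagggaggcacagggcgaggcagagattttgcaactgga
Smpd1, chr7:105554110-105554409, plus strand: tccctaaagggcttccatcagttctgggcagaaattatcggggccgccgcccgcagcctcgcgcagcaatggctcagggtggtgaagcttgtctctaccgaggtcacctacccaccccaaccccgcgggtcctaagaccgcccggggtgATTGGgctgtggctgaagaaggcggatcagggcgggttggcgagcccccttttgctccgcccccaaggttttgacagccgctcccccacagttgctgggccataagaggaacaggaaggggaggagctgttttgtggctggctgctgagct
Asah2, chr19:32103091-32103390, minus strand: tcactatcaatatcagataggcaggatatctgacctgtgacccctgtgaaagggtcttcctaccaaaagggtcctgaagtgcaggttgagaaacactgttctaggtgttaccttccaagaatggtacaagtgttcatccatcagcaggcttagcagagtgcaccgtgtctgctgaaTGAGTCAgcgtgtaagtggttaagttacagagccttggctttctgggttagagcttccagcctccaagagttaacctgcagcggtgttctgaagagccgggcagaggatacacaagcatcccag
Gltp, the gene with the highest P3 level, had 3 CCAAT boxes, whose first bases lie 182, 146 and 115 bases before the start. The box lies 35 bases before the start in Elovl1, 222 in Pnpla1 and 101 in Smpd1, and TGAGTCA lies 74 bases before the start in Asah2. The windows of Cers3, Abca12, Alox12b and Gba2 held neither set of letters. A match describes the sequence only, and binding was not measured here.

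Other genes of the pathway, from a list of 41 of which 39 were found, moved in both directions. At P3, 12 of 39 were higher and 5 lower than before birth (median 0.37), beside 9.56% and 9.42% of all genes. From P3 to 10wk, 11 were higher and 6 lower (median 0.27), beside 19.8% and 9.98% of all genes. From E18.5 to 10wk, 11 were higher and 2 lower (median 0.64), beside 16.1% and 6.92% of all genes. Genes of the acylceramide and corneocyte lipid envelope were higher at P3 in 6 of 8 cases (9.56% of all genes). They were lower at 10wk than at P3 in 5 of 8 (9.98% of all genes), with 4 genes in both counts. Among them were Nipal4, a membrane protein whose loss causes ichthyosis, at 7.11, 39.9 and 9.91 FPKM (2.34 and -1.91), Slc27a4, a fatty acid transporter, at 17.7, 60.7 and 27.3 FPKM (1.72 and -1.13), and Sdr9c7, a dehydrogenase that acts after the lipoxygenases, at 24.4, 76.0 and 14.4 FPKM (1.60 and -2.32). Elovl6, the elongase that feeds long chains into the pathway, was at 13.7, 57.3 and 127 FPKM (1.99 and 1.14), and Spns2, an exporter of sphingosine 1-phosphate, at 17.7, 71.9 and 29.7 FPKM (1.96 and -1.25).

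Genes of glycosphingolipid synthesis and lysosomal breakdown were higher at 10wk than at P3 in 7 of 12 cases and lower in 0, beside 19.8% and 9.98% of all genes. At P3, 2 of the 12 were higher and 2 lower than before birth, beside 9.56% and 9.42% of all genes. The 2 lower ones are named next. Hexa, a lysosomal hexosaminidase subunit, was at 35.0, 12.8 and 95.5 FPKM (-1.39 and 2.81), and B4galt5, which forms lactosylceramide, at 4.22, 1.59 and 11.2 FPKM (-1.01 and 2.24). The receptor S1pr1 of sphingosine 1-phosphate, known from vessels and lymphocytes, was at 11.9, 4.21 and 25.4 FPKM (-1.31 and 2.34). The endothelial markers were also lower at P3 (6 of 6) and higher at 10wk than at P3 (4 of 6). From E18.5 to 10wk, S1pr1 was called higher, but 0 of 6 endothelial markers were, with a median of -0.32. The part of vessels in the S1pr1 values was not tested. The regulators Ormdl1, Ormdl2 and Ormdl3, which restrain serine palmitoyltransferase, passed 2-fold in no comparison (0 of 3).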

How the data were processed

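RNA of whole skin was extracted with Trizol and libraries were made with a TruSeq kit from 1 ug of total RNA, per the labels' protocols. The deposited values are FPKM, 1 averaged value per gene and age, per the file headers. TopHat2 2.0.7, Cufflinks 2.1.1 and the build mm9 are named in the submitters' processing notes; for the annotation, the strand setting and the treatment of shared reads, the entry is: not given in the sources used here. Because FPKM is relative to the whole library, abundant genes move the others, and depth and counting precision are unknown. Values of 0 marked as failed (3 at E18.5, 7 at P3) were left out. The tables count starts from 0, since end minus start equalled the RefSeq length in 228 of 535 microRNA genes and end minus start plus 1 in 4, so 1 was added to each start.

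Differences were taken on log2 (FPKM + 1) among genes at 1 FPKM or more at 1 or more ages, and called at 2-fold. The foreseen test for replicate columns was not used. Rescaling by the median of ratios moved log2 ratios by -0.07 (E18.5 to P3), -0.18 (P3 to 10wk) and -0.25 (E18.5 to 10wk), and by the upper quartile by -0.22, -0.08 and -0.30. The functions were tested on simulated data. The members, lists and motifs were chosen with earlier results of these data known. All members are named; of the other pathway genes those past 2-fold with the largest differences could be named, at most 6 per comparison, and the first 2 markers of a list; Cidea, Xist and Ddx3y and the genes sharing a span, and the Ormdl genes, were named after their values were seen. Python 3.11.15, pandas 2.3.3, numpy 2.4.6 and matplotlib 3.10.9 were used.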

Additional observations from a re-analysis of the deposited data

How the results depend on the processing

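Alternatives were a pseudocount of 0.1 or 5, no filter or a minimum of 5 FPKM, both rescalings, a 1.5-fold threshold, and differences relative to the epithelial markers or, chosen after seeing the data, to the granular and cornified markers. No paired analysis was possible because each age has 1 averaged value, and for the same reason no replicate could be left out. The shares within a family do not depend on scaling.

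With a pseudocount of 5, 6 members were higher and 1 lower from E18.5 to 10wk, and of the other pathway genes 2 were lower at P3, 7 higher from P3 to 10wk, and 6 higher and 0 lower from E18.5 to 10wk. From E18.5 to 10wk, 5 members were higher with the median of ratios and 5 with the upper quartile. Of all 14659 genes compared, 1848 and 1788 were then higher, against 2358 without rescaling. With the upper quartile the median of the members was 0.33 and 6 other pathway genes were higher. With these 2 scalings the share of all called genes that were higher moved from 69.9% to 59.1% and 57.0% in that comparison, and with the upper quartile from 50.4% to 37.4% from E18.5 to P3 (1401 higher and 1380 lower against 1101 and 1839). Calls gained were Elovl7 (-1.02) and Sphk1 (-1.07), lower from P3 to 10wk with the median of ratios, Aloxe3, lower from E18.5 to 10wk with both scalings, and Sgms2, higher at P3 with a pseudocount of 0.1 (1.09).

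Relative to the epithelial markers, 1 member was higher and 14 lower at P3 (median -0.68), 22 higher and 2 lower from P3 to 10wk (median 1.16), and 4 higher from E18.5 to 10wk (median 0.35), and 0 were highest at P3. Other pathway genes were then higher in 0 and lower in 24 cases at P3, higher in 27 and lower in 0 from P3 to 10wk, and higher in 6 from E18.5 to 10wk. At P3 the difference changed sign in 24 of the 38 members, 14 of them under 2-fold before; the others, called higher before, turned negative: Sptlc3 (-0.65), Elovl1 (-0.38), Ugcg (-0.44), Gltp (-0.26), Alox12b (-0.20), Smpd1 (-0.32), Asah2 (-0.71), Acer1 (-0.58), Sphk1 (-0.52) and Sgpl1 (-0.45). From P3 to 10wk it changed sign in 14 members, 10 of them under 2-fold before; the others, called lower before, turned positive: Degs2 (0.085), Elovl1 (0.14), Smpd1 (0.25) and Asah2 (0.21). These turns follow from subtracting a marker median of 1.71 or -1.52. Relative to the granular and cornified markers, 1 member was higher and 18 lower at P3 (median -0.94). From P3 to 10wk, 31 members were higher and 0 lower (median 2.33). From E18.5 to 10wk, 20 were higher and 1 lower (median 1.18), and 0 were highest at P3. The marker medians subtracted here were 1.97, -2.69 and -0.55, and the share of all genes was not computed. The epithelial median alone made 84.7% of all genes 2-fold lower at P3 and 80.5% 2-fold higher from P3 to 10wk. These counts therefore cannot be read as particular to the members.

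With the 1.5-fold threshold, 1 member was lower at P3, 8 were higher from P3 to 10wk and 19 higher from E18.5 to 10wk; of the other pathway genes 8 were lower at P3, 17 higher and 10 lower from P3 to 10wk, and 23 higher from E18.5 to 10wk. Apart from the marker-relative differences and the threshold, the count of members higher at P3 and of those lower from P3 to 10wk stayed within 1.5 times the reported count under each alternative.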
